A study of Mus musculus with 10 samples.

Results

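The Ly6 antigen family was followed here through 5 genes, Ly6a, Ly6c1, Ly6c2, Ly6e and Ly6i, taken by their gene symbols from the 24421 symbols common to all 10 libraries. All 5 were found in every library and all 5 were among the 12938 genes that entered the test. The libraries held RNA of Ly6Chigh splenic monocytes on day 5 after surgery, sorted as Ly6Chigh CD115+ cells that also bore CD11b and the macrophage antigen encoded by Adgre1 and lacked Ly6G, after magnetic removal of T- and B-cells. Of the 10 libraries, 3 came from C57BL/6 wild-type (WT) mice after sham surgery, which opened the chest without closing the artery, 3 from WT mice after myocardial infarction (MI), made by tying off the left anterior descending artery for good, and 4 from Foxp3DTR mice after the same MI. In Foxp3DTR mice, on a B6.129 background, the Foxp3 promoter drives a human receptor for diphtheria toxin (DTX), which makes Foxp3+ regulatory T-cells (Treg) sensitive to it. They were injected with 500 ng DTX at a time before the operation and 250 ng on day 2 after it. The depletion is described as incomplete. The study names toxin-treated WT mice after MI as the comparator of Foxp3DTR mice, but it also names WT mice after MI without mention of toxin, and the labels of the single WT group after MI do not say which these are. Its dosing scheme covers sham operations too, without saying whether these sham mice were dosed. Genotype and Treg loss cannot be told apart here, nor, if the WT mice were not dosed, can the toxin. All animals were young adult males, and where the labels do not state that libraries of a group came from separate animals, p-values measure only the spread between libraries.

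Ly6 proteins are small, cysteine-rich surface proteins of a 3-fingered fold that are held in the outer leaflet of the membrane by a glycosylphosphatidylinositol (GPI) anchor. Several serve as the classical surface antigens of mouse leukocytes, and some are known to be induced by interferons. Ly6c1 and Ly6c2 encode the Ly6C antigen, by which inflammatory monocytes are told from patrolling ones, and the sort of these cells gated on that protein. Ly6a encodes Sca-1, the stem cell antigen that is also found on activated lymphocytes and on endothelium. Ly6e encodes an interferon-induced protein of many cell types, known from the study of virus entry, and Ly6i is a less studied relative.

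The genes lie side by side on mouse chromosome 15 (build mm10, coordinates as in the deposited tables). Ly6e occupies chr15:74955051-74959905 on the plus strand. The other 4 follow on the minus strand, with Ly6i at chr15:74979812-74983430, Ly6a at chr15:74994877-74998031, Ly6c1 at chr15:75044018-75048837 and Ly6c2 at chr15:75108161-75111949. All 5 are protein-coding genes of several exons in the GENCODE M21 annotation, and the whole group spans 157 kb.

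Ly6c1 and Ly6c2 are near copies, which bears on every value given for either. In an end-to-end alignment of the coding sequences of the first annotated transcript of each gene, 387 of 396 bases (97.7%) were identical and the longest stretch without a difference ran over 188 bases, longer than a read of 50 bp. The coding sequence of Ly6a was 82.3 to 86.4% identical to those of Ly6c2, Ly6c1 and Ly6i, whereas Ly6e was 51.8 to 56.0% identical to the other 4. The first 150 coding bases of both Ly6c genes are shown because they hold 6 of the 9 differences, which stand in capitals. The coding exons lie within chr15:75045402-75048511 for Ly6c1 and chr15:75108543-75111667 for Ly6c2, both on the minus strand of GRCm38, and the sequences were read from the GENCODE M21 transcripts.
Ly6c1: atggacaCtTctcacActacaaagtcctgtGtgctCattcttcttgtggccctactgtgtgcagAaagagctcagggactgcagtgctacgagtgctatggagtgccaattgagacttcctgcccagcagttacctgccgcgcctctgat
Ly6c2: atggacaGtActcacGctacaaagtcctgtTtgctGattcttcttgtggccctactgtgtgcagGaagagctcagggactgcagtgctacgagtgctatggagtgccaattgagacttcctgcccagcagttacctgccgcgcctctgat

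The differences between this pair, written as the Ly6c1 base, the position counted from 1 at the first coding base, and the Ly6c2 base, were C8G, T10A, A16G, G31T, C36G, A65G, G254A, T327C and G376A. Over all annotated transcripts, 379 windows of 50 bases were shared by Ly6c1 and Ly6c2, which is 21.5% of the windows of Ly6c1 and 13.9% of those of Ly6c2. Ly6c1 shared a further 195 windows with Ly6a, and Ly6a and Ly6i shared 31. In all, 246 windows of Ly6a (19.0%) and 55 of Ly6i (4.76%) occurred in another gene. No window of Ly6e occurred in a transcript of any other gene. Values of Ly6c1 and Ly6c2 taken singly are therefore uncertain, those of Ly6a in part, and the sum of both Ly6c genes is given beside them.

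The upstream sequences of Ly6c1 and Ly6c2, the only members with a promoter listed, are shown because both genes encode the antigen of the sort. They were taken from the RefSeq promoter table (build GRCm38.p6), ended at the outermost start of the RefSeq gene, which lies upstream of the gene start in the deposited tables, and read 5′ to 3′ on the minus strand, chr15:75048921-75049087 for Ly6c1 and chr15:75112067-75112221 for Ly6c2. Capitals mark runs of at least 10 bases that occur in both, which cover 34.1% of the Ly6c1 window and 37.4% of the Ly6c2 window.
Ly6c1: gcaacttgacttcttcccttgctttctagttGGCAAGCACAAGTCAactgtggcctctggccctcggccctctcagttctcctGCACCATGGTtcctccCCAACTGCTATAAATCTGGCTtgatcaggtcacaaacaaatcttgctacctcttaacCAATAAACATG
Ly6c2: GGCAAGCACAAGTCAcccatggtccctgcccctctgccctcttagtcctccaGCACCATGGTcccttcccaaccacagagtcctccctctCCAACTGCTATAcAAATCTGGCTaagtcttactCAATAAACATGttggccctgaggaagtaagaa

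These windows were searched on both strands for TTCNNNGAA, the spacing of a gamma-activated site, which reads the same on either strand, and for the core of the interferon-stimulated response element, GAAA followed by any pair of bases and GAAA again. Both motifs may overlap at GAA. No match was found in the 250 bases before any of the 4 start sites listed for Ly6c1 and Ly6c2. Ly6a, Ly6e and Ly6i had no promoter listed and could not be searched. Of the 32851 promoters in the table, 7.02% held the first motif and 2.98% the second in a window of the same length.

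Depth, derived from coverage and FPKM, ranged from 3.13 M to 8.40 M reads of 50 bp, and sham library 2 had the fewest. This is the depth that the deposited abundances imply, and it lies below the read number that the study gives for its sequencing. Correlations of all tested genes between libraries lay between 0.914 and 0.974. The defining monocyte genes of the sort were abundant in all groups, Csf1r (CD115) at 564 ± 63.6 TPM (SD, n = 4) in Foxp3DTR mice and 670 ± 69.9 TPM (n = 3) after MI in WT mice, and Ly6g has no entry in these tables. Sham library 3 stood apart from the other sham libraries in markers of other cell types, with a summed level of 11 T-cell genes of 213 TPM against 22.8 and 37.8 TPM, and of 12 neutrophil genes of 1411 TPM against 429 and 346 TPM. The comparisons with the sham group are therefore given with and without that library. In bulk RNA of this kind, fewer cells of a type and less RNA per cell cannot be told apart.

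The TPM scale gives transcripts per 1e6, already divided by gene length, so that levels of different genes can be set side by side. The order of the levels was the same at the top in all 10 libraries, Ly6c2 first, Ly6e next and then Ly6c1. Ly6c2 ranged from 1498 to 4757 TPM and ranked between 9 and 42 among all genes of a library. Ly6e ranged from 1158 to 1798 TPM with ranks between 32 and 64, and Ly6c1 from 111 to 782 TPM. Ly6a, from 24.0 to 207 TPM, and Ly6i, from 17.0 to 123 TPM, were the lowest and changed places between libraries, also within the sham group. Together the 5 genes made up 0.378% ± 0.0898 of all TPM in the sham group (SD, n = 3), 0.396% ± 0.0539 in WT mice after MI (n = 3) and 0.675% ± 0.0726 in Foxp3DTR mice after MI (n = 4). On scaled values their sum did not pass in Foxp3DTR mice against WT mice after MI (log2 fold change 0.53; limma, adjusted p = 0.332), where the groups overlapped, or against sham surgery (0.80; adjusted p = 0.162).

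**Figure D1:**
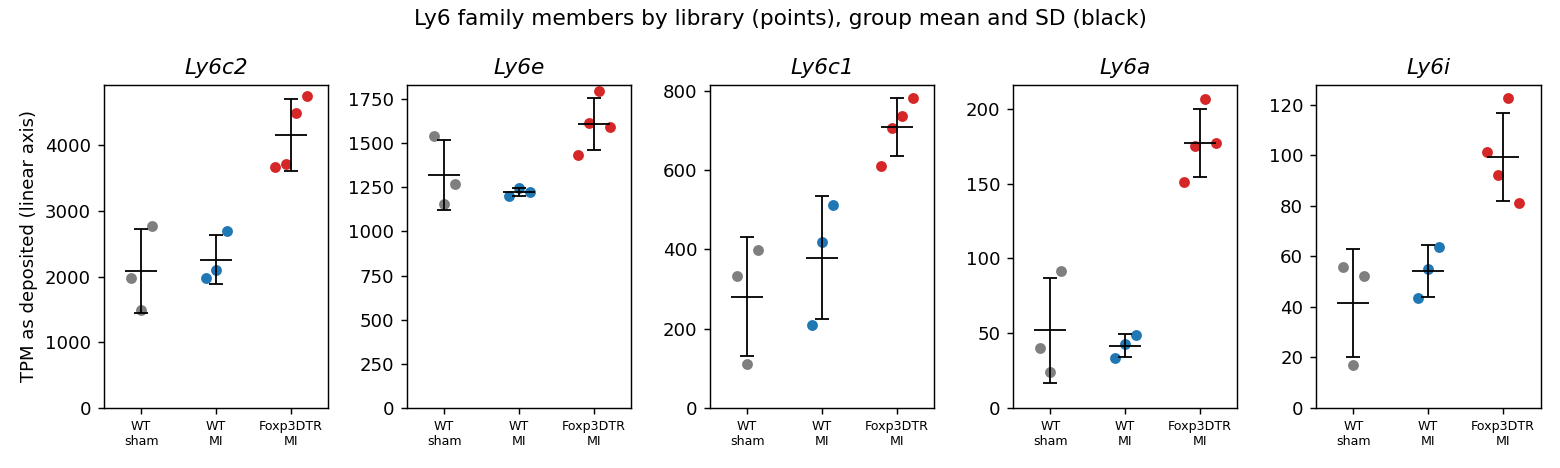
TPM as deposited of the 5 Ly6 genes (1 panel each, linear axes starting at 0) in WT mice after sham surgery, WT mice after MI and Foxp3DTR mice after MI; points are libraries, black bars the group mean and SD. The 4 Foxp3DTR libraries of Ly6a sit between 151 and 207 TPM, above all 6 WT libraries, whereas the Ly6e panel shows the smallest distance between groups.

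To learn how the family behaved after MI in mice depleted of Treg, Foxp3DTR mice were compared with WT mice after MI. Ly6a rose 3.58-fold. Ly6c2, Ly6c1 and Ly6i had linear fold changes between 1.54 and 1.68 that did not pass the test, and Ly6e the smallest, at 1.11. The test was limma on log2(TPM + 1) after scaling between libraries, with Benjamini-Hochberg adjustment over all 12938 genes. By it 1 of the 5 genes passed at an adjusted p of 0.05, where 1.12% of all genes tested did so in either direction and 0.688% were higher. At an unadjusted p of 0.05 there were 2 of 5, Ly6a and Ly6c2, against 17.7% of all genes. All 5 fold changes were positive, with a median of 0.64 on the log2 scale against 0.00080 for all tested genes.

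Ly6a, the Sca-1 gene, stood at 33.2, 42.8 and 48.5 TPM in the 3 libraries of WT mice after MI and at 151, 175, 207 and 177 TPM in the 4 of Foxp3DTR mice. All Foxp3DTR libraries lay above all WT libraries, with a wide gap between the groups. The group means were 41.5 ± 7.71 TPM (SD, n = 3) and 178 ± 22.8 TPM (n = 4), and on scaled values the increase was 3.58-fold, a log2 fold change of 1.84 ± 0.34 (SE; limma, adjusted p = 0.0413, 95% interval 1.08 to 2.60). The log2 fold change kept between 1.68 and 2.00 whichever library was left out. The call itself was close to the threshold, and the adjusted p of limma reached 0.051 to 0.11 without sham library 1, without any one library of WT mice after MI or without any one of the Foxp3DTR libraries. Without sham library 2 or 3 it was 0.0174 and 0.0019. With no filter on low genes it was 0.0845 for the same fold change.

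Ly6c2, the more abundant of the Ly6C genes, measured 1985, 2100 and 2689 TPM in WT mice after MI and 3667, 3716, 4490 and 4757 TPM in Foxp3DTR mice. The groups did not overlap, on deposited or on scaled values. The log2 fold change was 0.64 ± 0.26 (SE), which is 1.56-fold, and did not pass (limma, adjusted p = 0.236, unadjusted p = 0.033). Quantile normalization gave a larger log2 fold change of 1.20 that passed (limma, adjusted p = 0.0448).

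Ly6c1, the companion Ly6C gene, read 208, 419 and 511 TPM in WT mice after MI and 611, 708, 736 and 782 TPM in Foxp3DTR mice. These deposited values did not overlap, but the scaled ones did, from 227 to 597 in the WT group after MI and from 538 to 826 in Foxp3DTR mice. The spread among WT mice after MI was wide, with library 2 at the bottom, and the log2 fold change of 0.75 ± 0.42 (SE) did not pass (limma, adjusted p = 0.377). Ly6c1 was also the gene of the family whose deposited values disagreed among themselves, since its coverage was 0.414 to 0.523 of what its FPKM implied in the same library, while for the other 4 genes this ratio was 0.991 to 1.00. The cause was not tested.

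The sum of Ly6c1 and Ly6c2 was 2637 ± 514 TPM (SD, n = 3) in WT mice after MI and 4866 ± 612 TPM (n = 4) in Foxp3DTR mice. The groups did not overlap on scaled values, and the log2 fold change of 0.65 ± 0.28 (SE) did not pass (limma, adjusted p = 0.255). Within that sum, the share of Ly6c2 was 90.5, 83.4 and 84.0% in WT mice after MI and 85.7, 84.0, 85.9 and 85.9% in Foxp3DTR mice. The ranges overlapped, and the mean shares of 86.0 and 85.4% differed by -0.591 percentage points (exact permutation test, two-sided, p = 0.80). From coverage in place of TPM the shares were 93.2 and 93.3%. Without library 2 of WT mice after MI the difference turned to 1.68 percentage points.

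Ly6i was listed at 43.5, 55.1 and 63.9 TPM in WT mice after MI and at 101, 92.4, 123 and 81.1 TPM in Foxp3DTR mice. No Foxp3DTR library fell into the range of WT mice after MI. The log2 fold change of 0.62 ± 0.33 (SE) did not pass (limma, adjusted p = 0.358).

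Ly6e, the interferon-induced member on the opposite strand, measured 1203, 1247 and 1226 TPM in WT mice after MI and 1435, 1617, 1798 and 1592 TPM in Foxp3DTR mice. The WT libraries were very close together and lay below all Foxp3DTR libraries as deposited, but after scaling the groups overlapped. The log2 fold change was 0.15 ± 0.16 (SE), with a 95% interval from -0.20 to 0.50 (limma, adjusted p = 0.669). As deposited all 5 genes were without overlap and higher in Foxp3DTR mice, but so were 21.7% of all tested genes. On scaled values 3 of 5 were, against 9.97% of all tested genes. Scaling bears on these counts because without it the median of all genes moved by 0.22 on the log2 scale between these groups. The share of all TPM held by the 10 highest RNAs was 24.8 to 30.3% after MI in WT mice and 17.3 to 23.0% in Foxp3DTR mice. Its part in the result was not tested.

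**Figure D2:**
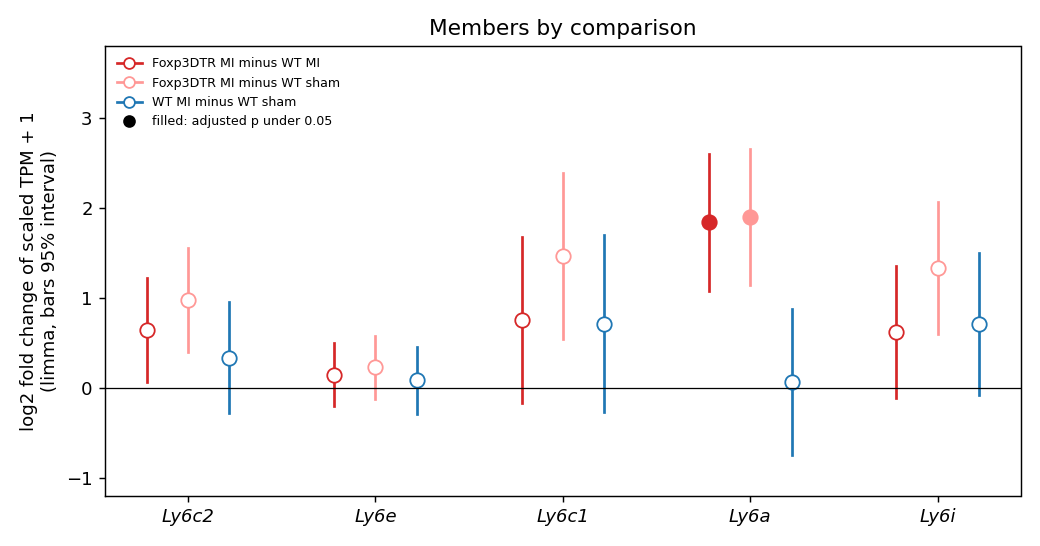
Log2 fold changes of scaled TPM + 1 for each Ly6 gene in the 3 comparisons of groups, with 95% intervals of limma as bars; filled points passed an adjusted p of 0.05. Both comparisons of Ly6a with Foxp3DTR mice are filled, at 1.84 and 1.90, and the other 13 points are open.

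Ratios within a library do not depend on the scaling between libraries. The log2 ratio of Ly6a to Ly6e was higher by 1.72 in Foxp3DTR mice than in WT mice after MI, and that of Ly6a to Ly6i by 1.23. In both the groups did not overlap, and the exact permutation test (two-sided) gave p = 0.0571, the smallest that 4 against 3 libraries allow, and 0.114 after adjustment over the 10 ratios. The ratio of Ly6a to Ly6c2 was likewise higher, since that of Ly6c2 to Ly6a differed by -1.22 (exact p = 0.0571, adjusted 0.114). By contrast, the log2 ratio of Ly6c2 to Ly6i differed by 0.0085 (exact p = 0.97) and that of Ly6c1 to Ly6i by 0.12 (exact p = 0.80). Ly6a exceeded Ly6i in all 4 Foxp3DTR libraries and was below it in all 3 libraries of WT mice after MI.

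As shares of the 5 genes summed, Ly6a made up 1.04% ± 0.0781 (SD, n = 3) in WT mice after MI and 2.63% ± 0.199 (n = 4) in Foxp3DTR mice. Ly6e made up 31.3% ± 3.90 (n = 3) in WT mice after MI and 23.9% ± 1.72 (n = 4) in Foxp3DTR mice. Neither share overlapped between these groups, Ly6a higher and Ly6e lower in Foxp3DTR mice (exact permutation test, two-sided, p = 0.0571 for each, the smallest possible). Adjusted over the 8 shares examined, p of the same test was 0.152 for each. Ly6c2 was the largest share everywhere, 56.9% ± 2.46 in WT mice after MI and 61.5% ± 2.25 in Foxp3DTR mice.

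**Figure D3:**
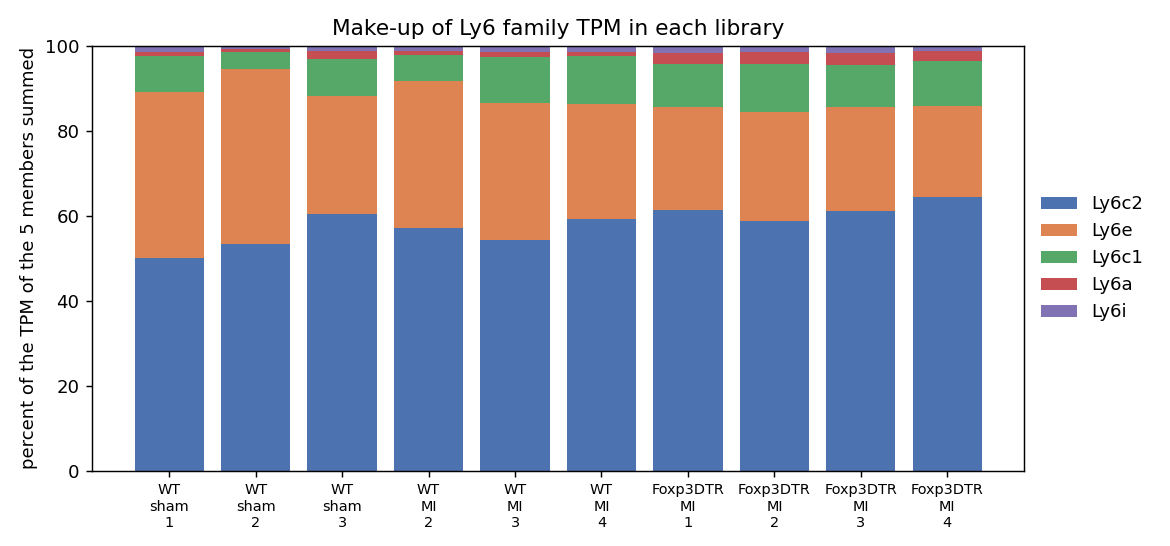
Share of each Ly6 gene in the TPM of all 5 genes summed, in percent (axis from 0 to 100), as 1 stacked bar for each of the 10 libraries. Ly6c2 is the largest part in each bar, Ly6e is 21.5 to 25.6% in the Foxp3DTR bars and 27.0 to 41.2% in the others, and the thin Ly6a part is thickest in the Foxp3DTR bars.

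The comparison of WT mice after MI with sham surgery asked for the response to infarction itself. Of the 5 genes, 0 passed, where 0% of the 12938 tested genes did, and none reached an unadjusted p of 0.05, which 600 of all genes did (limma). That is 4.64% of all genes. The groups overlapped for all 5 genes on either scale, whereas 3.18% of all tested genes were higher without overlap after scaling and 0.696% as deposited. Ly6a was 40.0, 24.0 and 91.6 TPM in the sham libraries, which enclosed all values of WT mice after MI, with a log2 fold change of 0.06 ± 0.37 (SE). This sign is not stable, since the log2 fold change was -0.12 without scaling between libraries. Ly6c2 was 1976, 1498 and 2772 TPM in the sham libraries, with a log2 fold change of 0.33 ± 0.28 (SE). Ly6c1 was 332, 111 and 400 TPM there and Ly6i 55.7, 17.0 and 52.1 TPM, with sham library 2, the shallowest, at the bottom for both. Their log2 fold changes were 0.71 ± 0.44 and 0.71 ± 0.36 (SE), and without that library 0.17 and 0.20. Ly6e was 1541, 1158 and 1267 TPM, with a log2 fold change of 0.08 ± 0.17 (SE), which turned to -0.10 without scaling. Adjusted p-values of the 5 genes lay between 0.960 and 0.997 (limma). Without sham library 3 the log2 fold changes were 0.55 for Ly6a, 0.54 for Ly6c2, 1.04 for Ly6c1, 0.93 for Ly6i and 0.03 for Ly6e, and none passed.

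Foxp3DTR mice after MI were also set against the sham group, from which they differ in genotype, Treg depletion and infarction at once. If the sham mice were not dosed, the toxin differs as well. The Foxp3DTR libraries are those of the first comparison. Ly6a was higher by 1.90 ± 0.34 (log2, SE; limma, adjusted p = 0.0494), the only 1 of 5 genes past the threshold, where 0.541% of all genes tested were in either direction and 0.386% higher. At an unadjusted p of 0.05 there were 4 of 5, against 18.6% of all genes. The log2 fold changes of the others were 1.46 ± 0.42 for Ly6c1, 1.33 ± 0.33 for Ly6i, 0.97 ± 0.26 for Ly6c2 and 0.23 ± 0.16 for Ly6e (SE; limma, adjusted p from 0.101 to 0.460). Groups did not overlap for 4 of the 5 genes, all but Ly6e, against 9.8% of all tested genes that were higher without overlap. Without sham library 3, Ly6a was higher by 2.39 (limma, adjusted p = 0.00099), and Ly6i (1.55, adjusted p = 0.0435), Ly6c2 (1.18, adjusted p = 0.0440) and Ly6c1 (1.79, adjusted p = 0.0492) passed as well. The calls among all genes moved too. With single libraries left out, from 3 to 636 genes passed in this comparison, against 70 with no library left out. Without sham library 2, in contrast, Ly6a did not pass (limma, adjusted p = 0.144). The call of Ly6a was also lost, at adjusted p of 0.058 to 0.136, when any other single library was left out.

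The levels of the family followed each other across the 10 libraries, as a description that includes the differences between groups. Pearson correlations of log2(scaled TPM + 1) were highest between Ly6i and Ly6c1 at 0.94, between Ly6a and Ly6c2 at 0.93 and between Ly6c1 and Ly6c2 at 0.91, where shared reads may add to the last. The lowest was 0.57, between Ly6e and Ly6a. Among the other tested genes with a mean of at least 5 TPM, those nearest to each member were found by the same correlation over these libraries. For Ly6a these were Nampt, Coa5 and Pnp (all at 0.98), of which Nampt makes a precursor of NAD and Pnp breaks down purine nucleosides. Nampt and Coa5 passed the test themselves in Foxp3DTR mice against WT mice after MI, with log2 fold changes of 0.74 (limma, adjusted p = 0.0476) and 0.72 (adjusted p = 0.0248), while Pnp, at 0.76, did not (adjusted p = 0.0568). Ly6i was nearest to Pfkl, C4b and Tapbp (0.98, 0.97 and 0.97), the last a chaperone of peptide loading on MHC class I. Ly6c1 was nearest to Plscr1, Cd300lf and Aig1 (0.98, 0.97 and 0.97), Ly6c2 to Kars, H2afy and Sec24c (0.97, 0.95 and 0.95), and Ly6e to Hcls1 and Dhx38 (0.96 and 0.94). None of these 11 other genes passed the test in that comparison.

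The genomic neighbourhood was described next. Within 500 kb on either side of the family there were 23 other genes, of which 11 were listed at 0 in all libraries and 7 were high enough to be tested. Where 1.12% of all tested genes passed in either direction in Foxp3DTR mice against WT mice after MI, 1 of the 7 did. That gene was Ly6d, another member of the Ly6 superfamily, best known as a marker of lymphoid cells. It was listed at 0 in all 3 libraries of WT mice after MI, at 3.29, 3.77, 3.25 and 6.97 TPM in Foxp3DTR mice and at 1.21, 1.98 and 4.22 TPM after sham surgery (limma, adjusted p = 0.0246 for Foxp3DTR against WT mice after MI). No fold is given against a group listed at 0. Lynx1, a brain-expressed relative, measured 2.57 ± 0.27 TPM (SD, n = 4) in Foxp3DTR mice against 1.59 ± 0.19 TPM (n = 3) after MI in WT mice, which did not pass (limma, adjusted p = 0.565). Ly6f, 2010109I03Rik, Them6, Jrk and 9030619P08Rik ranged from 0.04 to 0.76 in log2 fold change and did not pass.

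**Figure D4:**
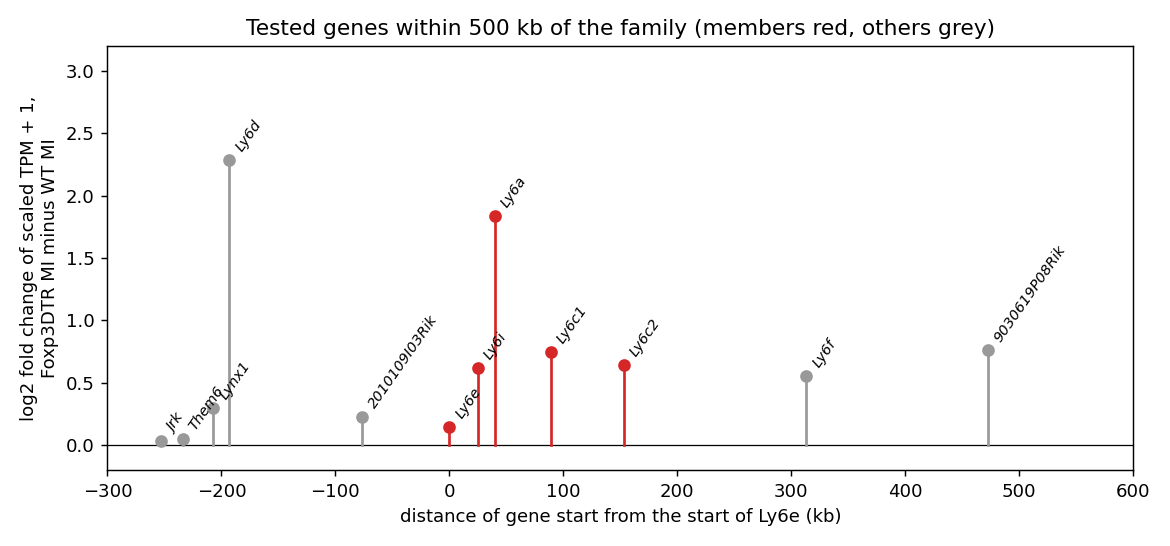
Log2 fold change of scaled TPM + 1, Foxp3DTR mice minus WT mice after MI, of the 12 tested genes within 500 kb of the family (Ly6 members red, other genes grey) against the distance of each gene start from the start of Ly6e in kb. Ly6a at 1.84 and Ly6d, which is listed at 0 in WT mice after MI so that its height depends on the added 1 TPM, stand above the rest.

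The Ly6 and uPAR superfamily had 30 further genes in the tables, some of which lie in the window just described. Of the 30, 16 were listed at 0 in all Foxp3DTR libraries and 21 in all libraries of WT mice after MI. Only 6 could be tested, among them Ly6d, Lynx1 and Ly6f, which were already counted in that window. Against 1.12% of all tested genes 1 of the 6, again Ly6d, passed. Plaur, the urokinase receptor and the most abundant of them, was 154 ± 11.4 TPM (SD, n = 4) in Foxp3DTR mice and 147 ± 23.3 TPM (n = 3) in WT mice after MI, a log2 fold change of -0.17 (limma, adjusted p = 0.633). The GPI anchor that holds Ly6 proteins is built by enzymes of the endoplasmic reticulum. Of 28 tested genes of that synthesis 0 passed (limma, adjusted p) in Foxp3DTR mice against WT mice after MI, where 1.12% of all tested genes did. Of the 28, 18 had positive fold changes, and the median was 0.06 on the log2 scale. Lowest in p were Piga, whose product starts the synthesis, at 0.84 (adjusted p = 0.121), Pigf at 0.66 (0.131), Pigp at -0.87 (0.195) and Pigu at 0.34 (0.299). Dpm1 was listed at 0 in every group.

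Several Ly6 genes are textbook targets of interferon, so the interferon receptors and their signalling were examined as a list. Of 20 genes, all tested, 3 rose in Foxp3DTR mice against WT mice after MI, where 0.688% of all tested genes did. None fell, and the median log2 fold change of the 20 was -0.01. Jak2, a kinase of the interferon gamma receptor, was 76.3, 78.2 and 70.0 TPM in WT mice after MI and 157, 162, 149 and 123 TPM in Foxp3DTR mice (log2 fold change 0.73 ± 0.083 SE; limma, adjusted p = 0.0151). Socs1, the feedback inhibitor of that pathway, was 4.93, 6.52 and 4.69 TPM against 34.7, 53.8, 65.5 and 44.6 TPM (2.74 ± 0.37; adjusted p = 0.0153). For both genes the groups did not overlap, as for Ly6a. Irf1, at 340 ± 87.4 TPM against 107 ± 53.3 TPM (SD), did not pass (limma, adjusted p = 0.0724), and the receptor genes Ifngr1 and Ifngr2 had -0.43 and -0.30 (adjusted p = 0.196 and 0.213). Against sham surgery Jak2 alone passed (0.64; limma, adjusted p = 0.0209), where 0.541% of all tested genes did. In WT mice after MI against sham surgery 0 of the 20 passed, where 0% of all tested genes did.

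Because Sca-1 also sits on cells other than monocytes, markers of such cells were set beside the Ly6 values. The summed TPM of 11 T-cell genes was 17.6 to 21.7 in WT mice after MI, 52.3 to 181 in Foxp3DTR mice and 22.8 to 213 after sham surgery. None of the 11 passed, but 10 lay higher without overlap in Foxp3DTR mice than in WT mice after MI, where 9.97% of all tested genes did, for example Cd8a at 3.27 to 13.8 TPM against 0.149 to 0.921 TPM. Neutrophil genes, 12 in number, summed to 169 to 472 TPM in WT mice after MI, 1297 to 2660 TPM in Foxp3DTR mice and 346 to 1411 TPM after sham surgery. S100a8 and S100a9 made up much of the Foxp3DTR sum, at 525 to 1082 and 260 to 703 TPM. In WT mice after MI they were at 20.0 to 189 and 12.4 to 26.7 TPM. Of the 12, 3 rose, namely the granule genes Camp and Ngp and the calgranulin gene S100a9 (limma, adjusted p from 0.0151 to 0.0244), where 0.688% of all tested genes did. Without overlap 9 of the 12 lay higher, again against 9.97% of all tested genes. Endothelial genes, 11 in number, summed to 9.33 to 11.8 TPM after MI in WT mice and 19.5 to 30.5 TPM in Foxp3DTR mice. Of these Pecam1, which myeloid cells also express, made up most, at 8.25 ± 1.09 TPM (SD, n = 3) and 21.1 ± 4.26 TPM (n = 4), while Kdr measured 0.299 ± 0.0407 and 1.29 ± 0.281 TPM and Vwf 1.00 ± 0.362 and 0.425 ± 0.154 TPM in the same order. Tie1, Emcn and Robo4 were listed at 0 in every library. Only Pecam1, Kdr and Vwf could be tested, and none passed (limma, adjusted p from 0.182 to 0.265). NK-cell genes summed to 19.1 to 57.6 TPM and 72.7 to 139 TPM in the same order, and plasma cell genes to 336 to 423 and 501 to 597 TPM, with none passing. Xbp1 made up most of the plasma cell sum, at 308 to 398 and 397 to 459 TPM. Jchain was 3.70 to 12.5 and 30.5 to 106 TPM. Of the 4 tested plasma cell genes 3 had positive fold changes and 1 a negative one. B-cell genes summed to 11.1 to 12.4 TPM after MI in WT mice and 7.41 to 14.7 TPM in Foxp3DTR mice. Of these Cd79b fell by 0.78 on the log2 scale (limma, adjusted p = 0.0496), where 1.12% of all tested genes passed in either direction. Of the 3 tested B-cell genes 2 had positive fold changes and 1 a negative one, with a median of 0.58 on the log2 scale. Genes of plasmacytoid dendritic cells (142 to 226 and 171 to 219 TPM), of stem and progenitor cells (36.8 to 63.7 and 18.3 to 30.6 TPM), for which Ly6a is a classical marker, and of erythroid cells (5.74 to 8.24 and 8.42 to 30.1 TPM) had 0 members past the threshold (limma). Of the 5 tested stem and progenitor genes 3 had positive and 2 negative fold changes. Flt3 was lower without overlap (11.7 ± 5.17 against 37.6 ± 15.7 TPM, SD) and Kit higher without overlap (1.97 ± 0.637 against 0.533 ± 0.0797 TPM).

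Sham library 3 was highest both in Ly6a, at 91.6 TPM, and in the T-cell and neutrophil sums, at 213 and 1411 TPM, among the sham libraries. Its T-cell sum exceeded that of every Foxp3DTR library, while its neutrophil sum lay within their range of 1297 to 2660 TPM. Its endothelial sum was 26.5 TPM, against 9.45 and 6.70 TPM in the other sham libraries and 19.5 to 30.5 TPM in Foxp3DTR mice. Its Ly6a was below all 4 Foxp3DTR libraries. The part of such cells in the Ly6a result was not tested. The 10 monocyte genes summed to 37819 to 39994 TPM after MI in WT mice and 25230 to 33998 TPM in Foxp3DTR mice, of which Lyz2, the lysozyme gene, made up 32115 ± 1761 TPM (SD, n = 3) and 19884 ± 2921 TPM (n = 4), and 0 of them passed (limma). Of these, Chil3, typical of Ly6Chigh monocytes, had a log2 fold change of 0.93 (limma, adjusted p = 0.224), Csf1r -0.49 (0.175) and Itgam 0.20 (0.391). Of the 4 tested sort markers none passed, and Cd3e, whose cells the beads should have removed, had 2.78 (limma, adjusted p = 0.0931), from at most 0.431 TPM in WT mice after MI to between 2.31 and 19.0 TPM in Foxp3DTR mice.

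**Figure D5:**
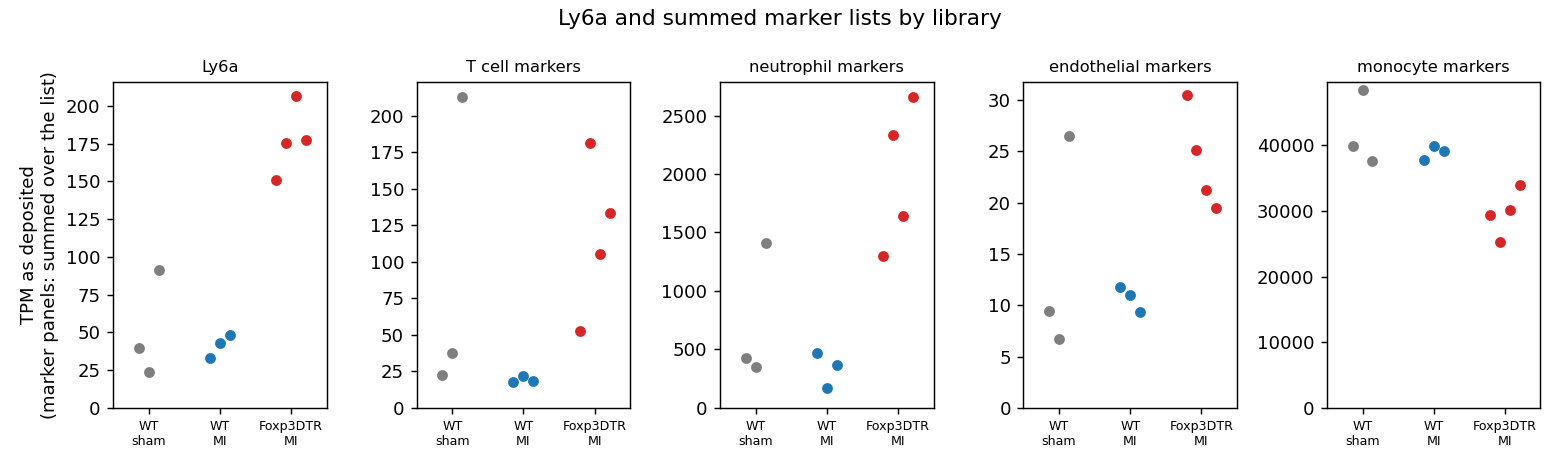
TPM as deposited of Ly6a and summed TPM of T-cell, neutrophil, endothelial and monocyte marker genes (1 panel each, linear axes from 0) by library in the 3 groups. Foxp3DTR libraries lie above WT libraries after MI in all panels but the monocyte one, where they lie below, and the highest sham point of the T-cell and neutrophil panels, at 213 and 1411 TPM, is library 3.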

How the data were processed

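RNA of sorted Ly6Chigh splenic monocytes was sequenced in 10 libraries (single-end, 50 bp; NuGEN Ovation SoLo kit, 20 to 50 pg of RNA). Tools listed by the submitters are CASAVA 1.4, cutadapt 1.1 for trimming, STAR 2.5 for alignment to mm10 and StringTie 1.3.0 for abundances. For each gene the authors deposited coverage, a signal that gives mean read depth over its exons. They also deposited FPKM, scaled to gene length and library size, and the deposited TPM adds up to 1e6 per library. Without counts, depth was worked out from the ratio of coverage to FPKM, constant within 1% for 84.9 to 85.2% of entries, and no counting interval is given.

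TPM was summed per symbol, scaled between libraries by median-of-ratios factors and tested as log2(TPM + 1), a scale that understates changes of low genes. A gene entered if at least 3 libraries reached 1 TPM. The test was limma 3.58.1 (R 4.3.3; variance trend, all 10 libraries, two-sided, Benjamini-Hochberg over all genes). Omitting the scaling shifted the median gene by 0.22 (Foxp3DTR against WT after MI), -0.17 (WT MI against sham) and 0.05 (Foxp3DTR against sham). Single values per library were compared by exact permutation (SciPy 1.17.1, Python 3.11.15). DESeq2, used in the study, needs counts and was not run.

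The 5 genes and the gene lists were chosen with earlier results of these data known. Named were the 5 genes, for each the 3 genes of highest correlation, up to 4 genes of lowest p per list, tested genes within 500 kb and the sort markers. Some genes that this rule names are not reported here. Others named, among them Cd8a, Pecam1, Plaur, Lyz2, Ifngr1, Ifngr2 and genes listed at 0, were chosen after their values were seen. Alternatives were other scalings, FPKM, pseudocounts of 0.1 and 5, no filter or one at 5 TPM, other limma settings, a replicate block, each library left out and, chosen after seeing the data, coverage in place of TPM.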

Additional observations from a re-analysis of the deposited data

Results flagged for a closer look

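Among 25 quantities examined for a single distant library in the 4 Foxp3DTR libraries, 3 passed Dixon's limit for 4 values, and all 3 describe the same thing, the balance of Ly6c2 and Ly6c1. The share of Ly6c2 in the sum of both was 84.0% in Foxp3DTR library 2 and 85.7 to 85.9% in the other 3, a gap that made up 0.894 of the whole range. For the log2 ratio of Ly6c2 to Ly6c1, 2.39 in library 2 and 2.58 to 2.61 in the others, it made up 0.889, and for the share from coverage, 92.5% against 93.5 to 93.6%, 0.871. The distance is small in itself, under 2 percentage points, because the other 3 libraries were so close together. Chance alone flags about 1 in 20 groups. Without library 2 the mean share in Foxp3DTR mice differed from that of WT mice after MI by -0.13 percentage points, against -0.59 with it.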

How the results depend on the processing

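Ly6a in Foxp3DTR against WT mice after MI kept its direction under every alternative run, but its call was lost with no filter, no variance trend and a robust fit (log2 fold change 1.84 in each; limma, adjusted p = 0.0845, 0.0655 and 0.05002). With single libraries left out it ranged from 1.68 to 2.00. Against sham it was no longer past the threshold with a pseudocount of 0.1 (1.92), no filter, no variance trend, a robust fit, only the 2 groups compared or coverage (1.90 in each), and with single libraries left out ranged from 1.497 to 2.39. Quantile normalization brought Ly6c2 (1.20 against WT MI, 1.31 against sham) and the 5 genes summed (0.95 and 1.103) past the threshold. Against sham, the left-out range was 0.82 to 1.61 for Ly6i, 0.92 to 1.79 for Ly6c1, 0.79 to 1.18 for Ly6c2 and 0.81 to 1.24 for their sum, all past the threshold without sham library 3. In WT MI against sham, where nothing passed, Ly6e turned to -0.10 without scaling and -0.075 with quantile normalization, and Ly6a to -0.12 without scaling and -0.10 with array weights, from -0.34 to 0.55 with single libraries left out. The difference in the Ly6c2 share turned to 0.081 percentage points from coverage and ranged from -1.89 to 1.68 with single libraries left out.

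The count of all genes past the threshold moved most. In Foxp3DTR against WT MI (145) it was 527 without scaling, of which 488 were higher, 22 with no filter, 583 with only the 2 groups, 74 with no variance trend and 398 with array weights, and 0 to 431 with single libraries left out. In Foxp3DTR against sham (70) it was 23 with a pseudocount of 0.1, 11 with no filter, 10 with only the 2 groups, 29 with no variance trend and 3 to 636 with single libraries left out. In WT MI against sham (0) it was 3 with only the 2 groups and 0 to 2 with single libraries left out. The cause was not tested.

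Replicate numbers did not pair the libraries. Deviations of same-numbered libraries correlated at -0.19 to 0.19 over 8 pairs, and 3 of 10 libraries correlated best with their own number. With the replicate block the counts were 81 in Foxp3DTR against WT MI and 16 against sham, and Ly6a was 1.93 (limma, adjusted p = 0.0331), 1.80 (adjusted p = 0.0674) and, in WT MI against sham, -0.14.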
